A study of Homo sapiens with 2 samples.

Results

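The protocadherins were followed in 2 drug-resistant sublines of A2780, a human ovarian carcinoma cell line. Members were taken by name, as every gene on the array whose symbol starts with PCDH. The rule gave 57 genes and 73 probes of 30238 gene names and 41000 probes. Of the 57 genes, 42 belong to the PCDHA, PCDHB and PCDHG clusters and 15 are non-clustered. The array names are older than current symbols for PCDH21, now CDHR1, and PCDH24, now CDHR2.

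A2780CBN had been selected in increasing carboplatin to 22.2 µM, and A2780CBNDXL in carboplatin together with docetaxel, for which the labels give 8.02 µM. The study gives another terminal dose for the combination and uses the labels' figure for an inhibitory concentration. That figure is therefore not read as the selection dose here. Each line was hybridized against A2780CC, parental cells carried alongside the selection without drug. The methods describe a control for each line, while the labels give both controls the same name. The lines were grown as populations and not as clones. RNA of 3 isolations per line was pooled into 1 sample, and that sample was run on 4 arrays, with forward and reverse dye labelling on each of 2 slides. The SD given below is therefore the spread of labelling and hybridization over 4 arrays of 1 sample, and no test between cultures could be made. The A2780DXL line was not analysed here.

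Between 59.8% and 67.5% of spots per channel were well above background, and no spot was saturated. KRT8, KRT18, PAX8 and VIM were well above background in every channel of all 8 arrays. EPCAM was above background in 8 resistant and 7 control channels, KRT19 in 6 and 6 and CDH2 in 7 and 7. FN1 was above background in the resistant channel of the 4 A2780CBN arrays and in 0 other channels. CDH1, WT1, MUC16, MSLN, the leukocyte marker PTPRC and the endothelial marker PECAM1 were above background in none. RNA was measured in bulk, so fewer cells with a transcript and less transcript per cell cannot be told apart.

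Protocadherins are the largest group of the cadherin superfamily, calcium-dependent adhesion proteins of the cell surface. The clustered genes lie in tandem on the long arm of chromosome 5. Each PCDHA and PCDHG transcript joins its own variable exon, with its own promoter, to exons that the whole cluster shares, whereas PCDHB genes are single exons. Promoter choice differs from cell to cell and is set by CTCF and cohesin looping and by DNA methylation. The non-clustered delta protocadherins are ordinary genes scattered over the genome, best known from neural wiring, and several of them are described as methylated and silenced in carcinomas.

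Probe sequences decide how far a clustered value can be read as 1 gene. The 2 alpha probes below are shown because their longest common run, in capitals, is 26 bases, and 46 of 47 overlapping bases match. The array annotation itself lists 4 alpha gene names for each. They lie at chr5:140148135-140148194 and chr5:140183630-140183689 on the plus strand of NCBI36.
PCDHA1: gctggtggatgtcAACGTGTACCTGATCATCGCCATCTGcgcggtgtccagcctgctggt
PCDHA5: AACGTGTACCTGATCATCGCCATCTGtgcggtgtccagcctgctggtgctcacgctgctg

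The beta probes for PCDHB2 and PCDHB7 also overlap in sequence, with 43 of 54 overlapping bases matching. The run shared by these and the PCDHB13 probe is in capitals and is 14 bases long. Their positions are chr5:140456848-140456907, chr5:140534872-140534931 and chr5:140576162-140576221.
PCDHB2: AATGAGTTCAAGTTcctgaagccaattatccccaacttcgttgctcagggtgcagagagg
PCDHB7: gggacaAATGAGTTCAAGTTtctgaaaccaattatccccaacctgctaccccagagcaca
PCDHB13: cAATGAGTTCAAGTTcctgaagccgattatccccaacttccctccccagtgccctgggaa

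Neighbouring gamma probes share a run of 24 bases, in capitals, but at different places in the probe. PCDHGA2 lies at chr5:140701024-140701083 and PCDHGA3 at chr5:140706122-140706181.
PCDHGA2: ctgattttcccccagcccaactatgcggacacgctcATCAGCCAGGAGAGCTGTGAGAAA
PCDHGA3: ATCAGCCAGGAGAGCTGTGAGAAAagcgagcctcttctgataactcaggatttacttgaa

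In all, 12 of the 73 member probes list more than 1 gene name, 11 of them in the clusters. A value of a clustered member below is the value of its probe. The probes of PCDH9, PCDH17 and PCDHGC3 list 1 gene each and are shown because large ratios rest on them. They lie at chr13:66698353-66698412 on the minus strand, chr13:57197329-57197388 on the plus strand and chr5:140837991-140838050 on the plus strand of NCBI36.
PCDH9: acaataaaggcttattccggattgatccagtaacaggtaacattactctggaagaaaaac
PCDH17: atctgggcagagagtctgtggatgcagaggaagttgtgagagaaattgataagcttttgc
PCDHGC3: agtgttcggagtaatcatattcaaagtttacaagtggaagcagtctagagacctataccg

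The rule for a change asked for a mean log2 ratio, resistant line over control, of 1 or more in size, that is 2-fold. It also asked for 1 sign over the 4 arrays and for a channel that was well above background on each of the 4. An array whose spot was left out as an outlier did not count as above background. In A2780CBN 29 of the 57 protocadherins had such a channel, and 8 were higher and 6 lower than the control. Over the whole array 8.01% of 17949 genes were higher and 4.57% lower by the same rule. In A2780CBNDXL 31 members had such a channel, of which 14 were higher and 4 lower, beside 7.72% and 9.24% of 17119 genes. Another 22 members were not above background on all arrays of either line, among them 9 of 17 gamma and 8 of 18 beta genes.

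The changed members are given by class, and the difference between the lines was not tested. In A2780CBN 17 clustered genes were above background, of which 3 were higher and 2 lower. Of 12 non-clustered genes above background there, 5 were higher and 4 lower. In A2780CBNDXL 22 clustered genes were above background, of which 12 were higher and 0 lower. Of 9 non-clustered genes above background there, 2 were higher and 4 lower. Of the 12 higher clustered genes, 7 carry gamma names. Among these is the PCDHGA8 probe, which also lists PCDHGA2 and PCDHGA12, themselves among the 7. The PCDHGA2 probe in turn lists PCDHGA3, another of the 7. No gamma gene changed in A2780CBN, where only 4 of 17 were above background, beside 8 of 17 in A2780CBNDXL. A channel that is dim on every array gives only a bound on a ratio. Of the changed members, 6 of 14 in A2780CBN and 9 of 18 in A2780CBNDXL had both channels measured above background throughout.

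Among the non-clustered genes the largest ratios lay in the delta groups and in PCDH15. PCDH17, PCDH19 and PCDH9 were far below the control in A2780CBN. In A2780CBNDXL PCDH17 and PCDH19 were also lower, while PCDH9 was higher. PCDH20 and PCDH15 went the other way, above the control in A2780CBN and below it in A2780CBNDXL. PCDH18 was higher in A2780CBNDXL and did not pass the rule in A2780CBN. With normexp and an offset of 50 the ratios of PCDH20, PCDH17 and PCDH15 in A2780CBN and of PCDH9, PCDH17, PCDH18 and PCDH15 in A2780CBNDXL stayed past 2-fold. Other changed members fell under 2-fold. In A2780CBN PCDH9 and PCDH19, each with a channel at background, shrank to -0.69 and -0.85. PCDH7, PCDH10 and PCDH21 shrank to 0.66, -0.48 and 0.12 there. In A2780CBNDXL PCDH19 and PCDH20 shrank to -0.71 and -0.69. PCDH10 in A2780CBN and PCDH20 in A2780CBNDXL had both channels above background on all 4 arrays.

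**Figure D1:**
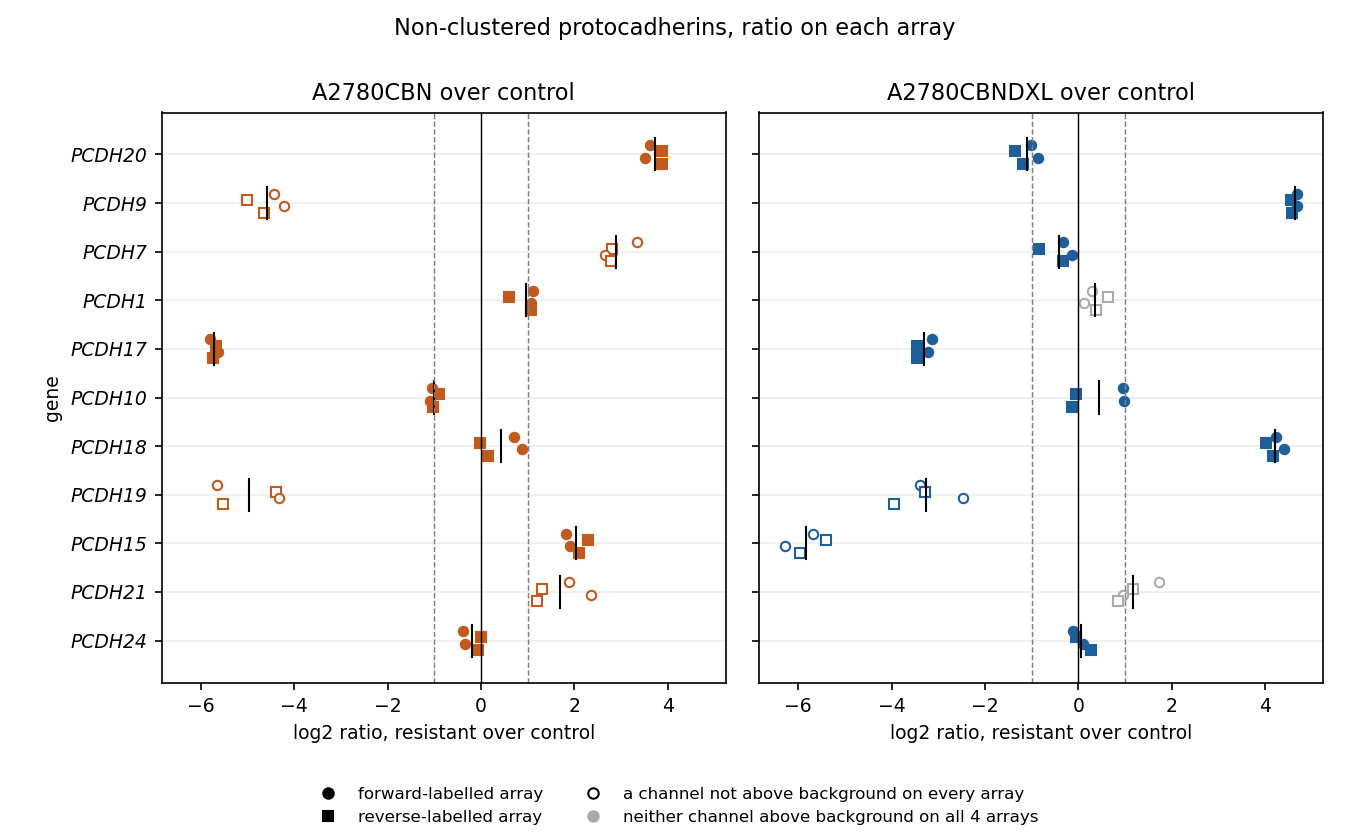
Log2 ratio over the control (x axis) of the non-clustered protocadherins with a channel above background in either line, in A2780CBN (left) and A2780CBNDXL (right). PCDH11Y is left out. Each point is 1 array, black bars are means and dashed lines mark 2-fold. PCDH9 lies at -4.57 on the left and 4.63 on the right, and PCDH17 lies left of zero in both.

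PCDH9 belongs to the delta-1 group, whose cytoplasmic tail carries a motif that binds protein phosphatase 1. Signals are given in the order slide 1 forward, slide 1 reverse, slide 2 forward and slide 2 reverse, in the arbitrary units of the scanner software. On the A2780CBN arrays PCDH9 read 9.51, 5.85, 7.83 and 7.38 in the resistant channel and 204, 187, 146 and 184 in the control channel. No array had the resistant channel well above background, so PCDH9 was at least 7.8-fold lower, with a measured log2 ratio of -4.57 ± 0.33. On the A2780CBNDXL arrays it read 11763, 12174, 10069 and 8981 in the resistant channel and 455, 521, 391 and 377 in the control channel. Here both channels were clearly measured and the resistant line was 24.8-fold higher, at a log2 ratio of 4.63 ± 0.08. A second PCDH9 probe, at chr13:65775387-65775446, was below background in both channels of every A2780CBN array. In A2780CBNDXL its resistant channel was above background and at least 10.6-fold over the control, so that probe gives the same direction as the first in this line and no value in the other.

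PCDH17, of the delta-2 group, is a cell surface protein whose cytoplasmic tail recruits the WAVE actin regulatory complex. It read 141, 104, 158 and 98.2 in A2780CBN and 7875, 5275, 7803 and 5214 in its control. The log2 ratio was -5.71 ± 0.08, or 52.3-fold lower. The A2780CBNDXL values were 2093, 2419, 2831 and 2585 against 18289, 26387, 26204 and 28199, a log2 ratio of -3.31 ± 0.16 and 9.92-fold lower. No resistant value reached a control value in either line. The other PCDH17 probe lay on the same side, with log2 ratios of -5.66 ± 0.17 and -3.95 ± 0.55.

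PCDH19, also a delta-2 gene, lies on the X chromosome and is mutated in an epilepsy that affects mainly females. It read 4.48, 10.5, 11.3 and 4.35 in A2780CBN against 226, 218, 227 and 200 in the control, at least 9.46-fold lower. For A2780CBNDXL the signals were 16.2, 17.3, 29.7 and 12.6 against 171, 168, 166 and 193, with a log2 ratio of -3.27 ± 0.60. The resistant channel was above background on 1 of the 4 arrays there, so the size of this ratio is imprecise while the groups remained apart.

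PCDH18 is the third delta-2 gene with a large ratio. In A2780CBNDXL it read 2660, 2977, 2541 and 1950, and its control read 141, 183, 120 and 109. The log2 ratio was 4.21 ± 0.16, or 18.5-fold higher. In A2780CBN the resistant channel read 98.9, 89.1, 67.2 and 73.5 and the control 61, 89.4, 36.6 and 65.7, which overlap. The mean log2 ratio there was 0.43 ± 0.42, with 0.70 and 0.88 on the forward arrays and -0.01 and 0.16 on the reverse arrays.

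PCDH10 completes the delta-2 genes above background, PCDH8 being at background throughout. The probe that represents it, at chr4:134331840-134331899, gave -1.01 ± 0.08 in A2780CBN, just inside the 2-fold limit. In A2780CBNDXL the same probe gave 0.96 and 0.98 on the forward arrays and -0.04 and -0.13 on the reverse arrays, so it had no common sign. The other probe, at chr4:134293758-134293817, gave larger ratios. It read 19.4, 31, 14.8 and 17.7 in A2780CBN against 193, 162, 176 and 148 in the control, a log2 ratio of -3.09 ± 0.51. In A2780CBNDXL it read 729, 693, 634 and 631 against 273, 276, 272 and 251, a log2 ratio of 1.32 ± 0.08. Both probes gave a lower level in A2780CBN, and the higher level in A2780CBNDXL rests on the other probe alone.

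Of the other delta-1 genes, PCDH20 and PCDH7 were higher in A2780CBN, as was the probe named PCDH11Y. PCDH20 read 3245, 3623, 2321 and 2899 there against 266, 248, 203 and 196, a log2 ratio of 3.72 ± 0.18 and 13.2-fold. The dual-resistant line read 339, 389, 332 and 254 against 684, 989, 607 and 579, a log2 ratio of -1.10 ± 0.21. Resistant and control values did not overlap in either line, and they lay in opposite order.

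PCDH7, another protein phosphatase 1 binding member, read 196, 175, 187 and 185 in A2780CBN against 19.3, 24.9, 29.6 and 26.7. Its log2 ratio was 2.90 ± 0.30, with the control above background on 2 of 4 arrays. In A2780CBNDXL the log2 ratio was -0.41 ± 0.30, short of the limit, and the resistant signals of 34.3, 33.9, 50 and 220 differed widely between arrays. Of the other PCDH7 probes, 1 was above background on 2 of 4 A2780CBN arrays in the resistant channel, at a log2 ratio of 2.17 ± 0.16, and the rest were at background. Over the control channels of the A2780CBN arrays the PCDH7 ratio in A2780CBNDXL was 1.20. PCDH1 reached 0.96 ± 0.24 in A2780CBN, just under the limit, and was not above background on all arrays of A2780CBNDXL. PCDH11Y is a near-identical copy of PCDH11X, whose own probe was at background, and a further probe named PCDH11Y lists both genes. The signal is therefore not assigned to either gene, and its levels are not given.

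Outside the delta groups, PCDH15 had the largest measured ratio of the family in A2780CBNDXL. PCDH15 pairs with CDH23 to form the tip links of inner ear hair cells. In A2780CBN it read 2020, 2160, 1524 and 1840 against 567, 438, 406 and 433, a log2 ratio of 2.03 ± 0.21. The A2780CBNDXL arrays gave 8.42, 15.7, 5.66 and 7.18 against 435, 663, 439 and 443, with a measured log2 ratio of -5.83 ± 0.37. The resistant channel stayed at background on these arrays, so PCDH15 was at least 22.5-fold lower. A second PCDH15 probe was at background in every channel.

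PCDH21, a photoreceptor protein, was weakly higher in A2780CBN at a log2 ratio of 1.70 ± 0.53. Its signals were 24.9, 39.3, 31.4 and 23.9 over a control at background, which allowed a bound of at least 1.35-fold. PCDH24, a protein of intestinal microvilli, was near 0 in both lines, at -0.19 ± 0.19 and 0.05 ± 0.18. PCDH12, an endothelial member, was at background.

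**Figure D2:**
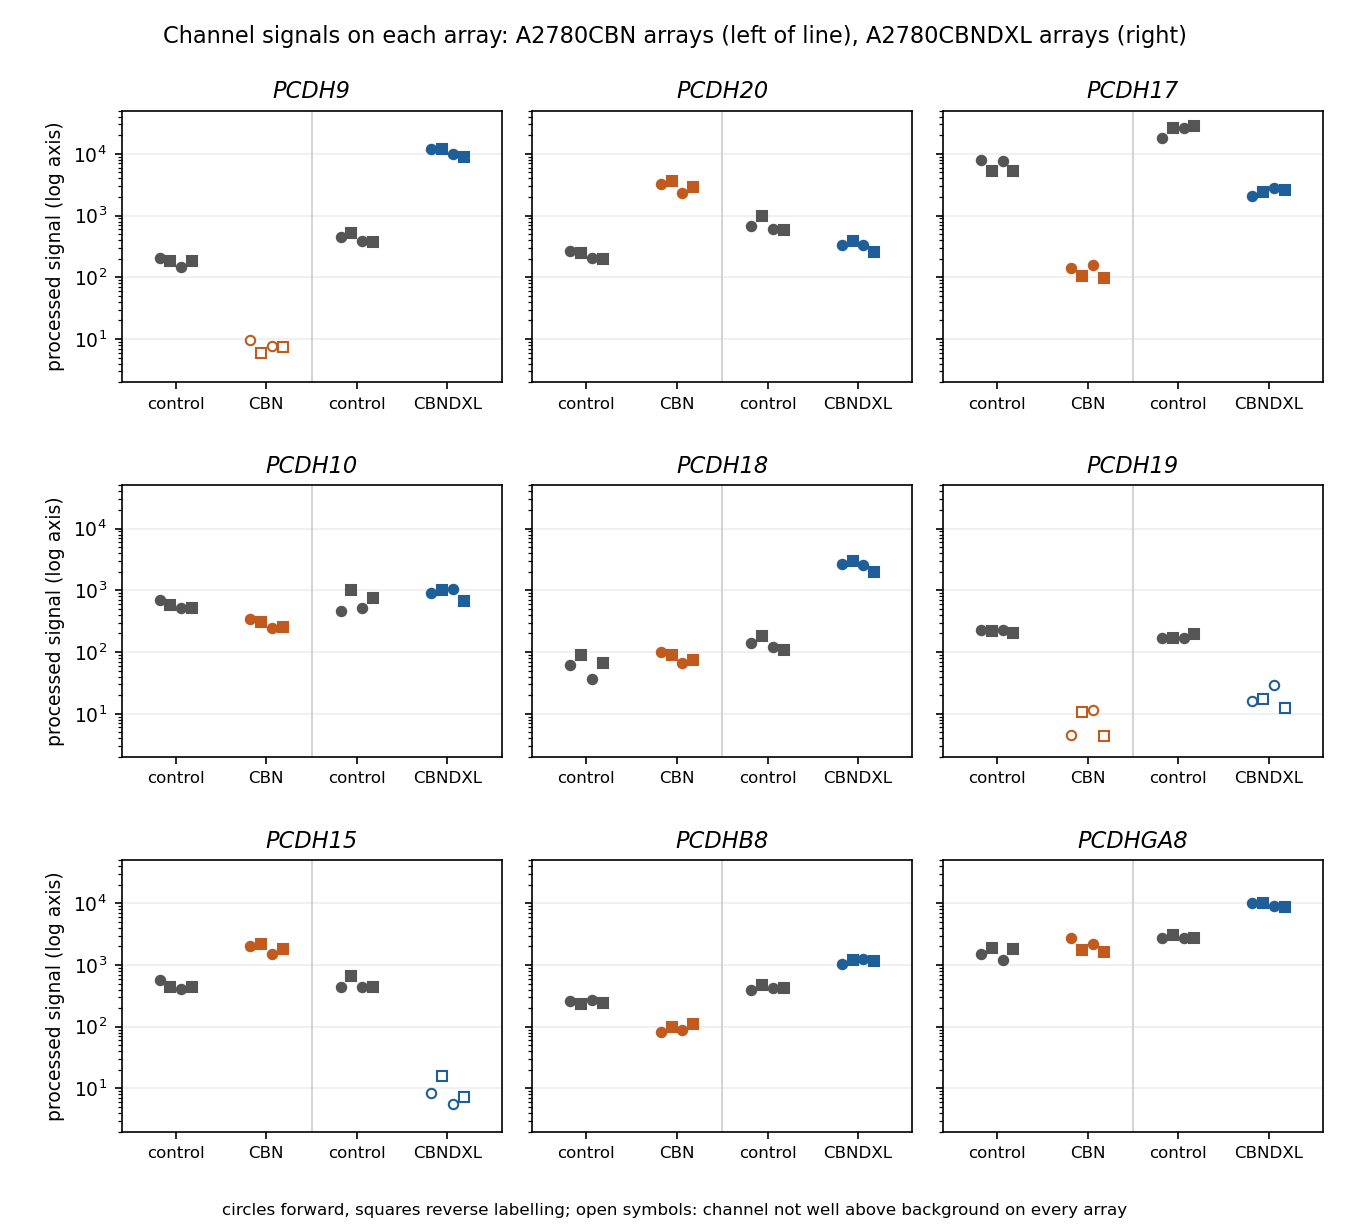
Processed signal of each channel on each array, on a log axis, for 9 protocadherins, with the A2780CBN arrays left and the A2780CBNDXL arrays right of the grey line in each panel. Circles are forward and squares reverse labelled arrays, and open symbols mark a channel that was not above background on every array. PCDH17 is lower than its control on both sides, and PCDH9, PCDH20, PCDH15 and PCDHB8 lie on opposite sides of their controls in the 2 lines.

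The control channels were themselves set side by side after scaling all channels to a common distribution. Of 23 protocadherins above background in all 8 control channels, 4 differed at least 2-fold between the controls of the 2 lines, which is 17.4%, beside 3.35% of 15653 genes. They were PCDH17, PCDH20, PCDH9 and PCDH18, higher in the control on the A2780CBNDXL arrays by 1.78, 1.53, 1.15 and 1.10 on the log2 scale. Whether the controls were separate cultures is not given by the labels, and the part of this difference in the ratios was not tested. With the control channels exchanged between the lines, the sign turned for 0 of the 14 changed members in A2780CBN and for 1 of the 18 in A2780CBNDXL. That member was PCDH20, at -1.10 over its own control and 0.42 over the other. PCDH17 in A2780CBNDXL kept its sign and moved from -3.31 to -1.53.

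The clustered genes span 724.4 kb from the PCDHA1 probe to the last gamma probe, in the order alpha, beta, gamma. In A2780CBNDXL the members that passed the 2-fold rule were 1 alpha, 4 beta and 7 gamma genes by name, and all 12 were higher. Of these 12, 5 had both channels above background on all arrays. The rest met the background rule through the resistant channel alone, so their direction is not independent of that rule. In A2780CBN PCDHAC2, PCDHB12 and the probe named PCDHA11, which also lists PCDHAC2, passed the rule and were higher. PCDHB8 and PCDHB9 passed it there and were lower. PCDHAC2 and PCDHB8 were the members changed in both lines, PCDHB8 in opposite directions. Most of these probes are dim, and after normexp background correction with an offset of 50, which adds the same amount to both channels, PCDHB8 at 1.06 and the PCDHGA8 probe at 1.67 were the clustered members still at least 2-fold apart, both in A2780CBNDXL.

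**Figure D3:**
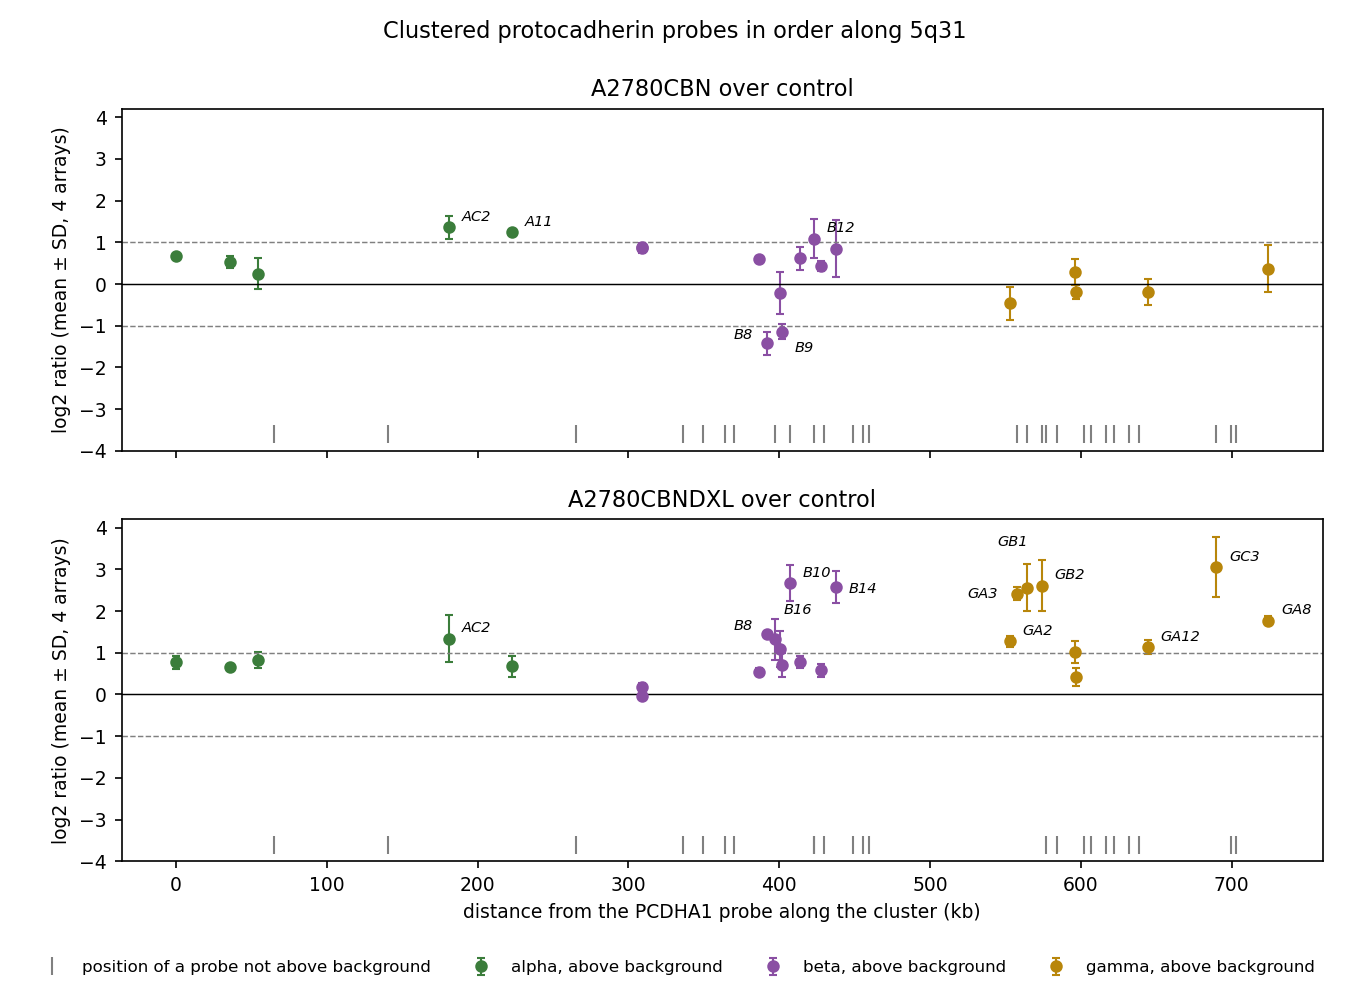
Mean log2 ratio of resistant line over control with its SD over 4 arrays (y axis) of each clustered protocadherin probe by its distance from the PCDHA1 probe in kb (x axis), in A2780CBN (top) and A2780CBNDXL (bottom). Grey ticks mark probes not above background, dashed lines mark 2-fold, and names without the PCDH stem label changed genes. The 7 gamma genes labelled at the bottom lie from 1.14 to 3.06, while no gamma probe above background passes either dashed line at the top.

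Gamma protocadherins are the subset that neurons require for survival and dendrite self-avoidance. The first 4 gamma genes with a probe, PCDHGA2, PCDHGA3, PCDHGB1 and PCDHGB2, were all higher in A2780CBNDXL. They follow one another among the probes, and genes without a probe of their own were not measured. PCDHGA2 read 142, 182, 243 and 199 against 54.6, 68.9, 106 and 90.5, a log2 ratio of 1.28 ± 0.13. The controls of the other genes were at or near background. PCDHGA3 read from 95.8 to 117 and was at least 4.98-fold higher, and PCDHGB1 read 95.2, 92.9, 63.5 and 58.3 and was at least 3.39-fold higher. PCDHGB2 gave log2 ratios of 2.80, 3.30, 1.82 and 2.51 on the 4 arrays, with a mean of 2.61 ± 0.62. In A2780CBN PCDHGA3, PCDHGB1 and PCDHGB2 were at background in both channels, and PCDHGA2 had a log2 ratio of -0.46 ± 0.40 with mixed signs.

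Further along the cluster PCDHGA12 gave 1.14 ± 0.16 in A2780CBNDXL and -0.19 ± 0.32 in A2780CBN. PCDHGC3 is one of the C-type isoforms that are used more evenly between cells. In A2780CBNDXL it read 109, 156, 116 and 113 against 10, 16.6, 29.1 and 9.64, a log2 ratio of 3.06 ± 0.72. The control was above background on 1 of 4 arrays there, so the size of this ratio is imprecise. With normexp and the offset given above it shrank to 0.49. In A2780CBN the PCDHGC3 ratio followed the labelling, at 2.84 and 1.88 on the forward and -2.49 and -1.83 on the reverse arrays. It has no direction there. PCDHGA7 gave 0.42 ± 0.21 in A2780CBNDXL with the probe that represents it and 1.02 ± 0.27 with the other. The same probes gave -0.19 ± 0.16 and 0.29 ± 0.32 in A2780CBN.

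The probe that carries the name PCDHGA8 lies at chr5:140872578-140872637, beyond the last gamma variable exon probe, and its annotation lists PCDHGA2, PCDHGA8, PCDHGA11 and PCDHGA12. It is not a measure of PCDHGA8 alone, whose own probe further upstream was at background. It read 10255, 10208, 9116 and 8629 in A2780CBNDXL against 2720, 3013, 2718 and 2717. The log2 ratio was 1.77 ± 0.10, or 3.41-fold higher, and resistant and control values were far apart. In A2780CBN it read 2733, 1769, 2187 and 1642 against 1484, 1881, 1221 and 1819, which overlap, with a log2 ratio of 0.37 ± 0.57.

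Of the beta genes changed in a line, PCDHB8, PCDHB16, PCDHB9 and PCDHB10 follow one another in that order, and PCDHB12 and PCDHB14 lie further along, with genes within 2-fold between them. PCDHB8 read 81.1, 98.6, 87 and 112 in A2780CBN against 257, 234, 270 and 242, a log2 ratio of -1.42 ± 0.27. The same gene read 1039, 1200, 1235 and 1147 in A2780CBNDXL against 389, 468, 427 and 423, a log2 ratio of 1.44 ± 0.07. The 2 lines lay on opposite sides of their controls on every array.

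PCDHB9 was lower in A2780CBN at -1.14 ± 0.18, with the resistant channel at background and a bound of at least 1.61-fold. In A2780CBNDXL it gave 0.71 ± 0.28, short of the limit. Its other probe was above background and gave -0.21 ± 0.51 and 1.10 ± 0.43, so the 2-fold call depends on the probe in both lines. PCDHB16 read 5.46, 5.56, 5.35 and 4.62 in A2780CBN against 25.5, 25.1, 29.4 and 31, with no channel above background on all 4 arrays. Its A2780CBNDXL signals were 85.7, 145, 171 and 156 against 23.7, 72, 54.7 and 89.9, a log2 ratio of 1.32 ± 0.50.

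PCDHB10 was at background in A2780CBN. In A2780CBNDXL it read 100, 64.1, 54.3 and 48.6 over a control at background, at least 3.09-fold higher. PCDHB14 read 384, 380, 321 and 279 there against 55.8, 85.8, 40.2 and 52.9, a log2 ratio of 2.58 ± 0.38. In A2780CBN it gave 1.58 and 1.29 on the forward and 0.17 and 0.35 on the reverse arrays, for a mean of 0.85 ± 0.69. PCDHB12 was higher in A2780CBN at 1.09 ± 0.47 and had no channel above background on all arrays of A2780CBNDXL. Other beta genes that met the background rule stayed within 2-fold, while 8 of the 18 beta genes met it in neither line. PCDHB2 gave 0.87 ± 0.12 and 0.18 ± 0.10 in A2780CBN and A2780CBNDXL, and 0.88 ± 0.06 and -0.04 ± 0.07 with its other probe. PCDHB11 gave 0.62 ± 0.28 and 0.78 ± 0.15, and PCDHB7, next to PCDHB8, gave 0.61 ± 0.07 and 0.54 ± 0.09.

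**Figure D4:**
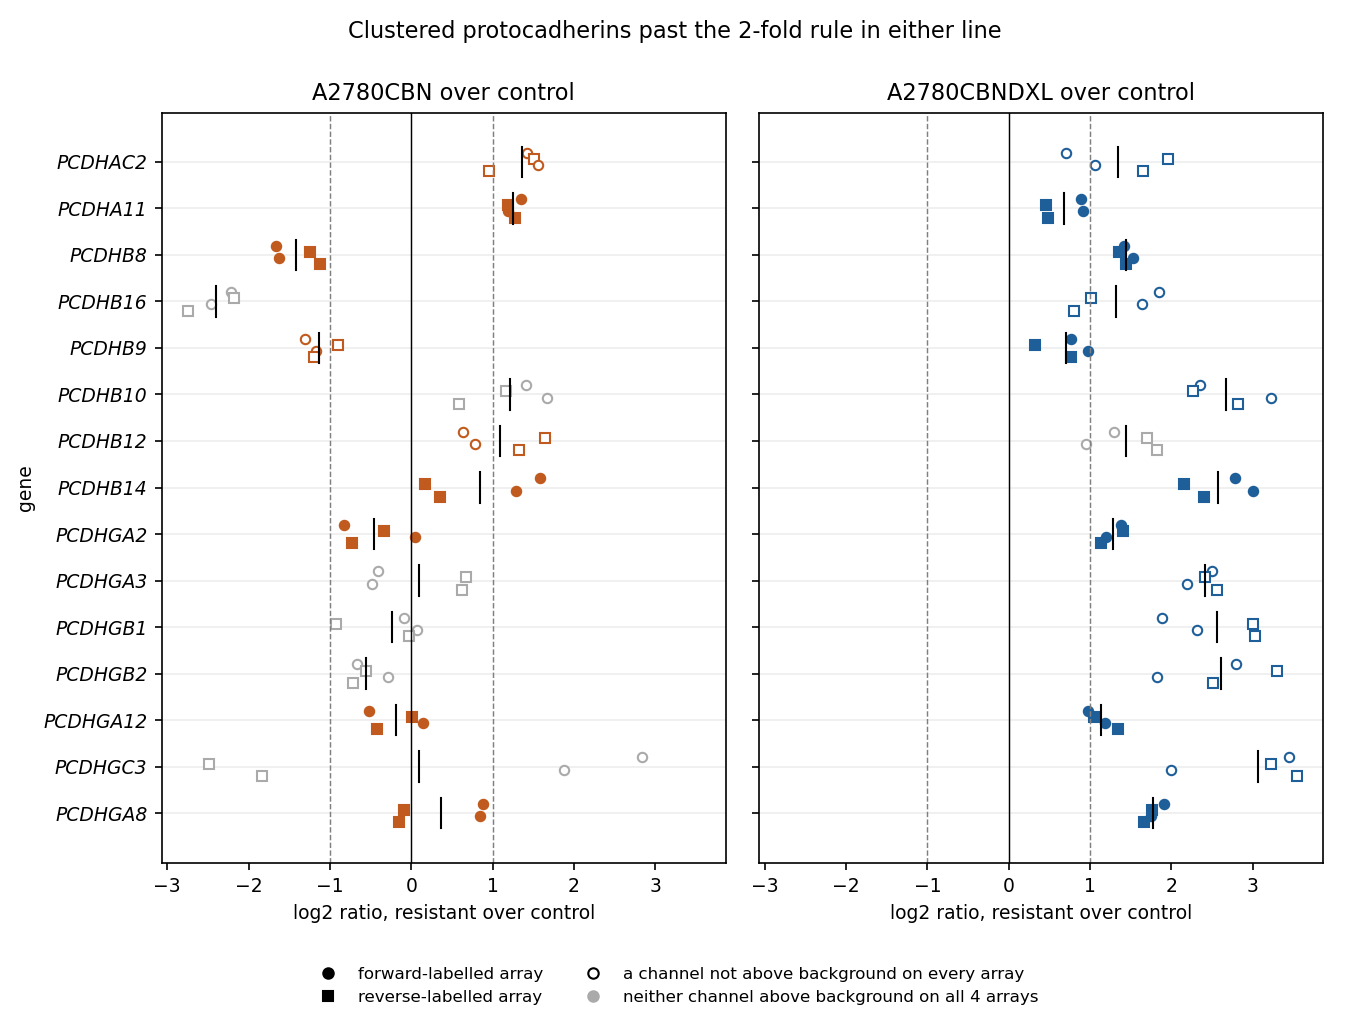
Log2 ratio of resistant line over control (x axis) on each array for the 15 clustered protocadherins that passed the 2-fold rule in either line, in A2780CBN (left) and A2780CBNDXL (right). Circles are forward and squares reverse labelled arrays, grey marks members with no channel above background on all 4 arrays, and dashed lines mark 2-fold. PCDHB8 lies left of zero in A2780CBN and right of it in A2780CBNDXL, and PCDHGC3 splits by labelling direction on the left.

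Among alpha genes PCDHAC2 passed the rule in both lines and the probe named PCDHA11 in A2780CBN. PCDHAC2, a C-type isoform, read 63.4, 63.2, 58.1 and 46.7 in A2780CBN and gave 1.36 ± 0.28. In A2780CBNDXL it read 70.8, 112, 66.8 and 69.5 and gave 1.34 ± 0.56, with the control above background on 1 and 3 of 4 arrays in the 2 lines. The probe named PCDHA11, at chr5:140371080-140371139, lies beyond the last alpha variable exon probe and lists PCDHA9, PCDHA11, PCDHAC1 and PCDHAC2. It read 1318, 1191, 821 and 1013 in A2780CBN against 518, 524, 361 and 419, a log2 ratio of 1.25 ± 0.08. In A2780CBNDXL the ratio was 0.68 ± 0.25, under the limit but positive on every array. PCDHA1, PCDHA5 and PCDHA8 gave 0.67 ± 0.06, 0.53 ± 0.14 and 0.25 ± 0.37 in A2780CBN. In A2780CBNDXL they gave 0.77 ± 0.16, 0.67 ± 0.04 and 0.83 ± 0.19.

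Promoters of clustered genes hold a conserved element around the letters CGCT. Sequences of 250 bases before to 50 after a start were taken from RefSeq on GRCh38.p14, which is a different build from the probe coordinates. They were at hand for 34 of the 42 clustered members. The element is shown, with CGCT in capitals, for 4 beta genes changed in a line and for PCDHB2, which was within 2-fold in both. The 8 letters GTGGCGCT, which hold CGCT and were picked from these promoters, occurred in 13 of 14 beta promoters and in 1.15% of all 35116 promoters on either strand. PCDHB1, whose probe was at background, was the exception, and in PCDHB8 the match lies at the annotated start and is not printed. The windows end upstream of the start and lie at chr5:141182304-141182351, chr5:141187068-141187115, chr5:141192293-141192340, chr5:141223257-141223304 and chr5:141094538-141094585, all on the plus strand.
PCDHB16: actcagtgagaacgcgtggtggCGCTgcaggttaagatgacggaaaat
PCDHB9: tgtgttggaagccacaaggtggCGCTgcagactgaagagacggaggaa
PCDHB10: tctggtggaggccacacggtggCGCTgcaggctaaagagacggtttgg
PCDHB14: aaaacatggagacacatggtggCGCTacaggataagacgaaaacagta
PCDHB2: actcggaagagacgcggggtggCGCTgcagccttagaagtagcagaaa

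The gamma element was read for genes that were higher in A2780CBNDXL and for PCDHGA9, whose probe was at background. GCCGCTGT, picked in the same way, occurred in 11 of 20 gamma promoters and in 1.63% of all promoters. It is in the windows of PCDHGB1 and PCDHGC3, which were higher, and of PCDHGA9, and not in those of PCDHGA2, PCDHGA3 and PCDHGB2, which were also higher. The PCDHGB2 window, with CGCT 195 bases before the start, is not printed. The printed windows lie at chr5:141338697-141338744, chr5:141343761-141343808, chr5:141350019-141350066, chr5:141475874-141475921 and chr5:141402708-141402755 on the plus strand.
PCDHGA2: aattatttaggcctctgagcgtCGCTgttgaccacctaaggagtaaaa
PCDHGA3: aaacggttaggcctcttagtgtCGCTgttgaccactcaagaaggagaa
PCDHGB1: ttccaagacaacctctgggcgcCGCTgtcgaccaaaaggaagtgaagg
PCDHGC3: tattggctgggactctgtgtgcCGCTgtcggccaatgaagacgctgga
PCDHGA9: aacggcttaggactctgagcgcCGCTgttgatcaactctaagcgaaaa

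CGCT alone is common, in 70.0% of all promoters, and was present in 14 of 14 beta, 20 of 20 gamma and 12 of 13 alpha promoters. ATGTCGCT was in 9 of 13 alpha promoters and 0.234% of all. These are matches of letters in a short window.

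Genes that act on or with protocadherins were read from lists of promoter and chromatin factors, cytoplasmic partners, related large cadherins and neighbours of the cluster. Of 18 promoter choice and chromatin genes, which include CTCF and cohesin subunits, 15 and 18 met the background rule in A2780CBN and A2780CBNDXL. CTCF, WAPAL and REST were above background in both channels of 3 A2780CBN arrays but were not counted there. DNMT3B, a de novo DNA methyltransferase, was the member that passed the rule, lower in both lines at -1.02 ± 0.54 and -1.13 ± 0.19. A count of 1 is near the share of lower genes on the whole array, 4.57% in A2780CBN and 9.24% in A2780CBNDXL. The median log2 ratio of the list was -0.09 and 0.00, beside -0.06 and 0.04 for all genes.

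Of the 22 partners that met the background rule in A2780CBN 3 were higher, and of the 19 in A2780CBNDXL 1 was higher. Over all genes 8.01% and 7.72% were higher. In both lines 0 of the counted partners were lower. WASF2 and PSEN2 were above background in both channels of 3 A2780CBNDXL arrays but were not counted there. CYFIP2, a subunit of the WAVE complex that delta-2 protocadherins bind, gave 1.38 ± 0.16 in A2780CBN and 0.61 ± 0.14 in A2780CBNDXL. FYN, a kinase that associates with alpha protocadherins, gave 1.06 ± 0.22 and -0.05 ± 0.09. RET, a receptor kinase that phosphorylates alpha and gamma protocadherins, was at least 5.25-fold higher in A2780CBN, with its control at background. In A2780CBNDXL it gave -1.60 ± 1.08, with the control above background on 3 arrays and the resistant channel on 0. PTK2B, a focal adhesion family kinase that clustered protocadherins inhibit, gave 0.95 ± 0.48 in A2780CBN and 1.46 ± 0.47 in A2780CBNDXL. The medians of the list were 0.06 and 0.26.

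Among 10 related large cadherins 7 were above background in each line, of which 2 were higher in A2780CBN and 3 higher and 1 lower in A2780CBNDXL. Over the whole array 8.01% of genes were higher in A2780CBN, and 7.72% were higher and 9.24% lower in A2780CBNDXL. CDH23, the partner of PCDH15, was higher in both lines, at 3.16 ± 0.09 and 3.51 ± 0.09, whereas PCDH15 changed sign between them. FAT4, a receptor in planar polarity, was at least 1.48-fold higher in A2780CBN over a control at background and gave 1.83 ± 0.96 in A2780CBNDXL. Its ligand DCHS1 gave 0.78 ± 0.84 and 1.11 ± 0.31. FAT1 gave 0.93 ± 0.23 and -1.03 ± 0.07, and was the list member that was lower in A2780CBNDXL. The medians were 0.78 and 0.47.

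Of 22 genes that flank the cluster on 5q31, 19 met the background rule in each line and 0 passed the 2-fold rule. TMCO6 in A2780CBN and ZMAT2 in A2780CBNDXL were above background in both channels of 3 arrays but were not counted there. Over the whole array 12.6% of genes passed it in A2780CBN and 17.0% in A2780CBNDXL. The log2 ratios of the counted neighbours ran from -0.62 to 0.29 in A2780CBN, where their median was -0.04. The range in A2780CBNDXL was -0.88 to 0.80 and the median -0.06. The 12 higher clustered genes of A2780CBNDXL lay beside neighbours of which those counted stayed within 2-fold.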

How the data were processed

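Gene expression was measured on 8 Agilent 4x44k 2-colour arrays, 4 per resistant line. The deposited files hold, per the file headers, the processed signal intensity of each channel, which the authors' software (Agilent Feature Extraction, 10.7.1.1 on the first slide, 10.7.3.1 on the second) had background-subtracted, detrended and dye-normalized, with surrogates for dim spots. Dim ratios therefore depend on the surrogate. Raw mean and background intensity from the deposited files served alternatives alone. Probe coordinates are on NCBI36, and exon annotation of that build was not used here.

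The forward arrays are labelled Cy3 for the control and Cy5 for the resistant line. Dye entries of the reverse arrays repeat the forward ones, against their name and the study's methods. They were turned over as the name states. As scanned, forward and reverse arrays correlated at -0.61 to -0.58 (A2780CBN) and -0.74 to -0.73 (A2780CBNDXL). All signs thus rest on the forward labels. Outlier spots, 165 to 1006 per array, were left out. Log2 ratios were averaged within labelling direction and then over both. Where a gene had several probes, the one brightest on average over the 8 arrays was used. The SD is over 4 arrays. Bounds compare the bright channel with, per array, the higher of the dim probe and the lowest probe above background, after Aquantile scaling. The number of arrays limits the precision.

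All protocadherins past the 2-fold rule are named, then up to 3 others per subfamily above background by size of ratio, list genes past the rule (up to 4 a list), and other probes that differ by over 1 on the log2 scale or in sign. Members and lists were chosen with earlier results of these data known. Of 73 member probes 70 matched a RefSeq accession. Alternatives were a 3-way ANOVA, normexp (offset 50) with loess, background-subtracted signals, each array left out, each slide alone, both channels above background, no dim filter, the mean over probes, fold limits of 1.5 and 3, and probes in place of genes. The steps were tested on simulated data. Software was limma 3.58.1 in R 4.3.3, and Python 3.11.15 with pandas 2.3.3, numpy 2.4.6, matplotlib 3.10.9 and scipy 1.17.1.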

Additional observations from a re-analysis of the deposited data

Results flagged for a closer look

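For 6 of the protocadherins with a channel above background on all 4 arrays of both lines, the ratio had one sign on every A2780CBN array and the opposite sign on every A2780CBNDXL array. The difference between the lines was not tested, since each line is 1 sample. PCDH9 was at -4.57 in A2780CBN and 4.63 in A2780CBNDXL, PCDH15 at 2.03 and -5.83, PCDH20 at 3.72 and -1.10, and PCDH7 at 2.90 and -0.41. The clustered genes were PCDHB8, at -1.42 and 1.44, and PCDHB9, at -1.14 and 0.71. The controls of PCDH7, PCDH20 and PCDH9 differed between the arrays of the lines by 1.61, 1.53 and 1.15 on the log2 scale, and that of PCDHB8 by 0.69. Over the control channels of the A2780CBN arrays, the A2780CBNDXL ratios of PCDH7 and PCDH20 were 1.20 and 0.42, so their opposite direction rests on the control used.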

How the results depend on the processing

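The counts of changed members were 5 clustered and 9 non-clustered in A2780CBN and 12 and 6 in A2780CBNDXL. With normexp and an offset of 50 they were 0 and 3, and 2 and 4, in that order, and 3 of the 14 changed members in A2780CBN and 6 of the 18 in A2780CBNDXL stayed at least 2-fold apart. The added offset compresses the ratio of dim signals by construction. With both channels above background the counts were 2 and 4, and 5 and 4. A limit of 1.5-fold gave 10 clustered members in A2780CBN, and a limit of 3-fold gave 0 there and 7 clustered members in A2780CBNDXL. Probes in place of genes, an alternative added after seeing the data, gave 10 non-clustered probes in A2780CBNDXL. Leaving out each array in turn gave 5 to 6, 8 to 10, 12 to 13 and 6 to 6 for the 4 counts. Of 450 recomputed ratios of members changed in a line, 389 stayed within the spread between arrays and 61 moved. Another sign was found for 4, which were PCDHGA3, PCDHGB1 and PCDHGC3 in A2780CBN, where they had not passed the rule, and for 0 of the changed ratios. Of the moved ratios 39 were with normexp, 13 with background-subtracted signals and 9 with the mean over probes. No paired analysis was possible because each line is 1 pooled sample. Arrays repeat 1 sample per line, so culture to culture spread is unknown. Many clustered members were read near background, and 12 member probes list several genes.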
